A study of Mus musculus with 12 samples.

Results

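The genes described here are 10 mouse genes of the VEGF and angiopoietin systems: the ligands Vegfa, Vegfb, Vegfc, Pgf, Angpt1 and Angpt2, and the receptors Flt1, Kdr, Tek and Tie1. They were chosen by name, and their probes were found through the RefSeq accession that the array gives for each probe. The 10 genes had 12 probes, Vegfa and Kdr having 2 each, and all 10 were among the 15226 genes tested. Tek and Tie1 passed the filter on dim probes through the glomerular arrays alone, and the other genes were well above background on all 12 arrays.

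VEGF ligands bind receptor tyrosine kinases on endothelial cells, and the angiopoietins bind Tek, which works together with Tie1. In the glomerulus, the capillary tuft that filters blood in the kidney, podocytes are known to make VEGF-A, and the endothelial cells across the basement membrane carry its receptors. Angiopoietin 1 activates Tek and is known for keeping vessels quiescent, while angiopoietin 2 can act against it.

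All mice carried an inducible Cre recombinase (CreERT2) with floxed Foxc1, and the series title names Foxc1 and Foxc2, which are forkhead transcription factors. In the genotype labels the number of the other floxed Foxc gene changes with each sample, so the title was taken as the guide. There were 6 groups of 2 arrays: glomeruli of tamoxifen-treated and of control mice, podocyte cultures treated for 4 days with tamoxifen or mock, and podocyte cultures treated for 7 days with tamoxifen or mock. The tamoxifen-treated mice were injected for 3 days in a row at 8 weeks of age, with glomeruli taken on day 7. For the control mice no age, injection or day of isolation is given. The cultures had been expanded from glomeruli of adult mice. Controls and mock cultures carry the floxed alleles too, and the promoter that drives the Cre is not given in the sources used here. The drug and the recombination it causes cannot be told apart, since every treated sample had both. The labels name separate mice for glomeruli and do not say whether numbered cultures were separate, so the spread between culture arrays, on which p-values rest, may be technical.

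The values are log2 signals relative to the 75th percentile of each array, so a value of 0 is that percentile, and levels of different probes are not set against each other. Between 57.9% and 63.4% of spots were well above background on an array, and 0 spots were saturated. Foxc2 was at -1.12 and -0.19 in tamoxifen glomeruli, against 2.10 and 2.24 in control glomeruli (limma, adjusted p = 0.037). It was not well above background on any of the 4 tamoxifen culture arrays. By the processed signal it was there at least 139-fold lower than with mock at day 4 and at least 151-fold lower at day 7. Those bounds were set at the dimmest probe well above background on each array, or at the Foxc2 signal where higher. Foxc1 was at 0.92 and 1.09 in tamoxifen glomeruli, against 2.92 and 2.81 in control glomeruli, and at -8.21 to -1.74 on the 4 tamoxifen culture arrays, against 2.62 to 4.32 on the 4 mock arrays, and 2 of the 4 tamoxifen culture arrays were not well above background. The Foxc1 difference did not pass in glomeruli (limma adjusted p = 0.62), at day 4 (0.14) or at day 7 (0.057). It passed in the mean of the day 4 and day 7 responses (adjusted p = 0.010), a contrast added after the data were seen. The fit shares 1 spread over the 6 groups, so the glomerular Foxc1 test also carries the wide spread of the tamoxifen cultures. All glomerular arrays lay on 1 slide, all day 4 arrays on another and all day 7 arrays on another. Each tamoxifen comparison therefore lies within a slide, while slide and group cannot be told apart in cultures against glomeruli or day 7 against day 4. All 16 podocyte markers were well above background on all 12 arrays. Of the 20 endothelial markers, which leave out the 10 genes, 20 were well above background on every glomerular array and 16 to 18 on the culture arrays, where Erg and Clec14a were above it on none.

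A gene was called where its Benjamini-Hochberg adjusted p was under 0.05 over all genes in the limma fit. The widest differences lay between mock cultures and control glomeruli, where 8 of the 10 genes were called, against 63.6% of all genes. Among all genes 37.6% were called higher and 26% lower. In cultures the endothelial receptors Flt1, Kdr, Tek and Tie1 and the ligands Vegfa and Angpt2 fell, Vegfc and Angpt1 rose, and Vegfb and Pgf did not pass. Tek and Tie1 were kept for the test only because they were bright in glomeruli, so they had to differ here. Without them the count was 6 of 8, near the share of all genes.

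With tamoxifen and each gene measured by its brightest probe, 0 of the 10 genes were called in glomeruli, at day 4 or at day 7. The shares of all genes called were 2.62%, 0.21% and 0.972%. At an unadjusted p under 0.05 the limma fit held 1 of the 10 genes in glomeruli (Vegfb), 2 at day 4 and 2 at day 7 (Vegfa and Angpt1 both times), against 18.3%, 10.9% and 12.2% of all genes. The treated and control arrays did not overlap for 5 of the 10 genes in glomeruli, 4 at day 4 and 4 at day 7. Of the 4 at day 4, Tek was not well above background on any of the arrays compared, so its order there has no meaning. Among all genes those shares were 48%, 50.6% and 41.3%, so the counts for the 10 genes were near them. With 2 arrays against 2, an exact permutation test cannot give a two-sided p below 0.333.

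**Figure D1:**
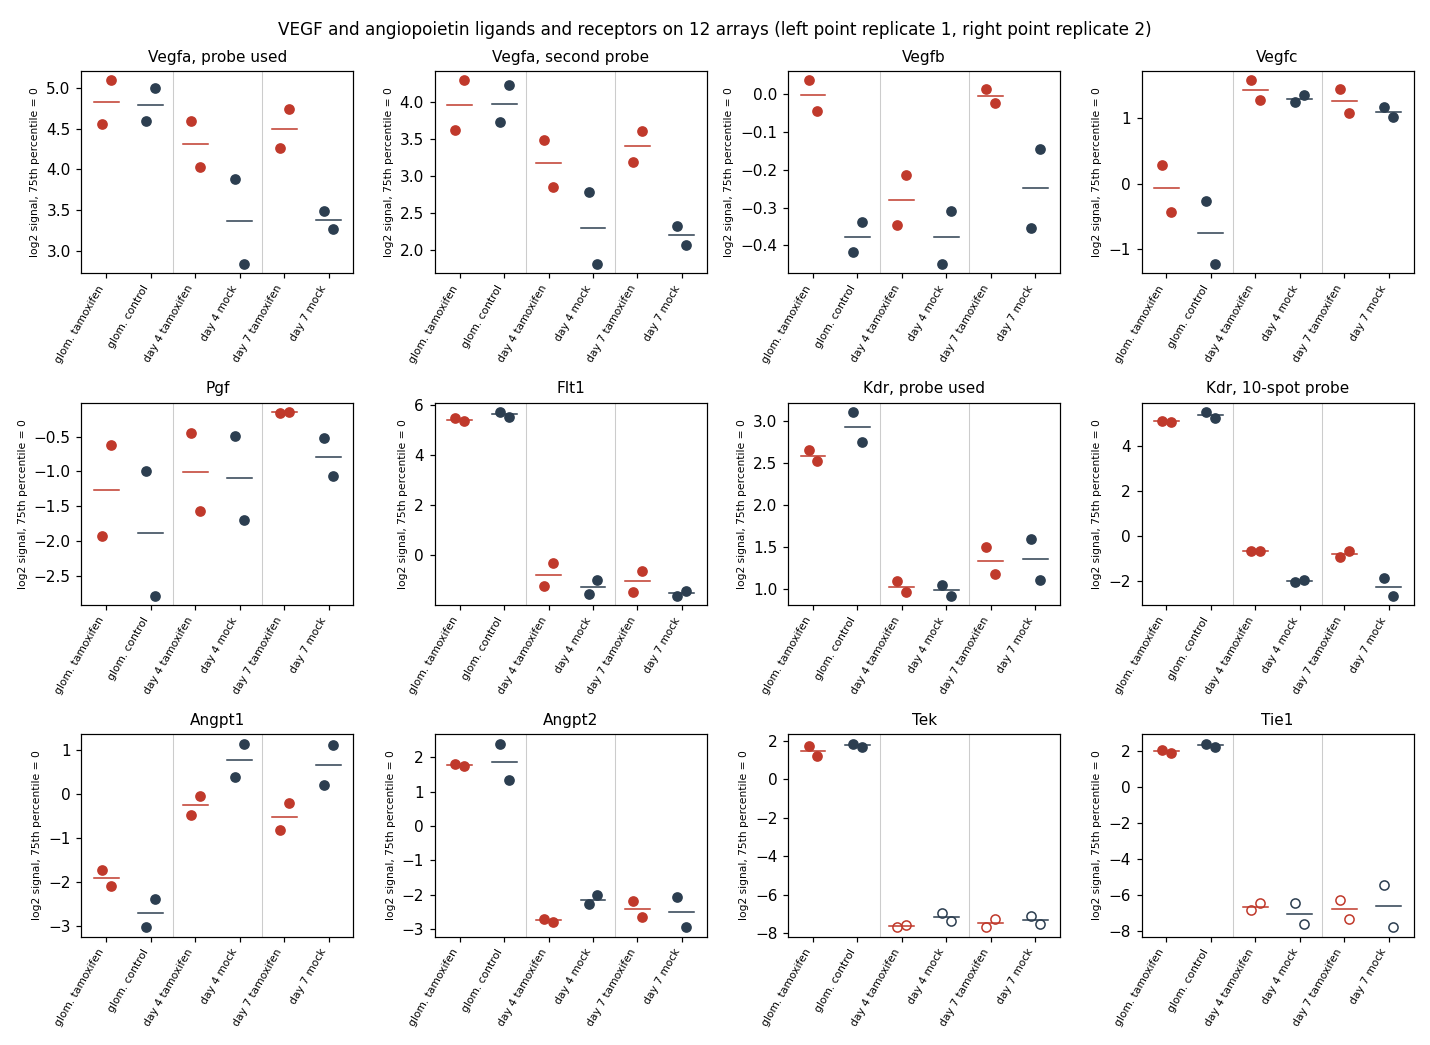
Log2 signal of every probe of the 10 genes, with the array's 75th percentile at 0, in the 6 groups. Each panel is 1 probe, each point 1 array (tamoxifen red, control or mock dark), lines are group means, and open points were not well above background. Flt1, Tek and Tie1 drop in all cultures, Vegfa is higher and Angpt1 lower in tamoxifen than in mock cultures at day 4 and at day 7, and the panels have their own axes.

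Vegfa encodes the main ligand of Kdr and Flt1 and lies on chromosome 17. Its signal was 4.56 and 5.10 in tamoxifen glomeruli, against 4.59 and 5.0 in control glomeruli. It was 4.59 and 4.03 in day 4 tamoxifen cultures, against 3.88 and 2.84 in day 4 mock cultures. It was 4.26 and 4.74 in day 7 tamoxifen cultures, against 3.49 and 3.27 in day 7 mock cultures. Every tamoxifen culture array was thus above every mock array, while the glomerular groups overlapped. The tamoxifen culture arrays overlapped the range of the glomerular arrays, and all 4 mock arrays lay below it.

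In cultures Vegfa averaged 4.31 ± 0.40 with tamoxifen and 3.36 ± 0.73 with mock at day 4, and 4.50 ± 0.34 with tamoxifen and 3.38 ± 0.15 with mock at day 7 (SD, n = 2 each). The difference was 0.95 at day 4 (SE 0.38, limma adjusted p = 0.41) and 1.12 at day 7 (SE 0.38, adjusted p = 0.27), so neither passed. In glomeruli it was 0.03 (SE 0.38, adjusted p = 0.98). A second Vegfa probe, to another transcript of the gene, differed by 0.88 at day 4 and 1.20 at day 7, and by -0.02 in glomeruli. A contrast added after the data were seen, the mean of the day 4 and day 7 responses, gave 1.03 for Vegfa (95% interval 0.41 to 1.65), or 2.05-fold, and did not pass (limma adjusted p = 0.071, 5.1% of all genes called). Leaving out the first day 4 mock array brought it to 1.29 (adjusted p = 0.036), and leaving out each other array in turn kept it uncalled. For all genes, tamoxifen arrays lay above mock arrays within day 4 and within day 7 for 16.2%.

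None of the other VEGF family ligands passed with tamoxifen. Vegfb encodes a ligand of Flt1 and lies on chromosome 19. Its signal was 0.04 and -0.04 in tamoxifen glomeruli, against -0.42 and -0.34 in control glomeruli, 2 groups that did not overlap. The difference was 0.37 (SE 0.11, unadjusted p = 0.011) and did not pass over all genes (limma adjusted p = 0.13). In cultures Vegfb lay between -0.35 and 0.01 on tamoxifen arrays and between -0.45 and -0.14 on mock arrays.

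Vegfc encodes a ligand that acts mainly through Flt4, the lymphatic receptor. It was at 0.29 and -0.43 in tamoxifen glomeruli, against -0.27 and -1.22 in control glomeruli, a difference of 0.68 (SE 0.34) that did not pass. In cultures it lay between 1.08 and 1.58 with tamoxifen and between 1.01 and 1.34 with mock, so the groups overlapped. Pgf, placental growth factor, is a ligand of Flt1 and lies on chromosome 12. Its replicates were far apart, at -1.92 and -0.62 in tamoxifen glomeruli and -1.0 and -2.79 in control glomeruli, and the interval of its glomerular difference ran from -1.04 to 2.27. At day 7 Pgf was at -0.16 and -0.14 with tamoxifen, against -0.51 and -1.06 with mock, a difference of 0.64 (SE 0.72).

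In mock cultures against control glomeruli, Vegfa fell by 1.42 (SE 0.33, limma adjusted p = 0.0057), a 2.68-fold lower signal, and Vegfc rose by 1.94 (SE 0.29, adjusted p = 6.3e-04), a 3.84-fold higher signal. Pgf differed by 0.95 (SE 0.62) and Vegfb by 0.06 (SE 0.10), and neither passed. The median of all genes differed by 0.17 in this comparison, and by 0.39 with median scaling and 0.09 with quantile normalization after normexp background correction. The called values of the 10 genes kept their direction and call under every alternative tried.

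Flt1 encodes VEGF receptor 1, which binds Vegfa, Vegfb and Pgf, and Kdr encodes VEGF receptor 2, the main signalling receptor for Vegfa. The promoter windows of the 4 receptors that fell in culture are shown, as RefSeq gives them on GRCm38.p6, from 250 bases before to 50 after the start of each gene. Capitals mark GGAA, the core of ETS factor sites, and GGGCGG, a GC box, on either strand. The windows are chr5:147725962-147726261 on the minus strand for Flt1, chr5:75978406-75978705 on the minus strand for Kdr, chr4:94739039-94739338 on the plus strand for Tek and chr4:118489800-118490099 on the minus strand for Tie1.
Flt1: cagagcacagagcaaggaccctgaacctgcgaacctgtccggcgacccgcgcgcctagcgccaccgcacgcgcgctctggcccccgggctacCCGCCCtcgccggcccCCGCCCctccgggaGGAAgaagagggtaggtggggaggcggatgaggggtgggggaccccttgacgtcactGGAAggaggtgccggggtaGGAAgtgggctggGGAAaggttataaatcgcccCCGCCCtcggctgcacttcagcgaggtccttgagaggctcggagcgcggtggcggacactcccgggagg
Kdr: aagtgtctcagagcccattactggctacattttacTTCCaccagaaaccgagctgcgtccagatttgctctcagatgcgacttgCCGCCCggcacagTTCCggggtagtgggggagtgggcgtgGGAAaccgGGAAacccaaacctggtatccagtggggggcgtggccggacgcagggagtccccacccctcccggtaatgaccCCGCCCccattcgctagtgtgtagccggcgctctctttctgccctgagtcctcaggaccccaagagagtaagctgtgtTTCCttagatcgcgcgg
Tek: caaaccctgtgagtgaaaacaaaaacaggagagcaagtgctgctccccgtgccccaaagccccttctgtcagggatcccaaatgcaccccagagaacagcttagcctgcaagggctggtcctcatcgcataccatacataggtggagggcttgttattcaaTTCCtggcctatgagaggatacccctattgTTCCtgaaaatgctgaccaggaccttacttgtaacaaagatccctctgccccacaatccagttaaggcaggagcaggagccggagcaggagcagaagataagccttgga
Tie1: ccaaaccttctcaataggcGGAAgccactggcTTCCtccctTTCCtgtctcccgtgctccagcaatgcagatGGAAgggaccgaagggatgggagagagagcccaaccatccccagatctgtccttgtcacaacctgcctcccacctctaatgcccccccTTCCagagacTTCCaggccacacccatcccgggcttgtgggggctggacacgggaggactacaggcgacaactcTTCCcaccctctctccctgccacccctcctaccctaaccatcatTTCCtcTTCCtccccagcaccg
GGAA occurred 4 times in the Flt1 window, 5 in Kdr, 2 in Tek and 9 in Tie1, and 96% of the 32851 windows of all genes held it. GGGCGG occurred 3 times in Flt1 and 2 in Kdr, and neither Tek nor Tie1 held it, against 35.7% of all windows. The 2 motifs did not overlap. The forkhead motifs TGTTTAC and TGTTTGC, searched on both strands, were in 0 of the 10 windows found for 8 of the 10 genes, and in 3.65% and 5.07% of all windows. These are matches of letters in 300 bases and no measure of binding.

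Flt1 was at 5.50 and 5.36 in tamoxifen glomeruli, against 5.74 and 5.54 in control glomeruli. It was at -1.23 and -0.32 in day 4 tamoxifen cultures, against -1.53 and -1.0 in day 4 mock cultures, and at -1.45 and -0.63 in day 7 tamoxifen cultures, against -1.60 and -1.44 in day 7 mock cultures. All 8 culture arrays lay below all 4 glomerular arrays, and within each culture day the groups overlapped. In mock cultures against control glomeruli Flt1 fell by 7.03 (SE 0.31, limma adjusted p = 9.4e-07), a 131-fold lower signal. With tamoxifen it differed by -0.21 in glomeruli (SE 0.35), 0.49 at day 4 (SE 0.35) and 0.48 at day 7 (SE 0.35).

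Kdr had 2 probes to the same accession, and they gave different pictures in culture. The probe with the higher mean over the 12 arrays, which the fit over genes used, had 1 spot an array. On it Kdr was at 2.66 and 2.53 in tamoxifen glomeruli, against 3.11 and 2.76 in control glomeruli. It was at 1.09 and 0.96 in day 4 tamoxifen cultures, against 1.05 and 0.92 in day 4 mock cultures, and at 1.49 and 1.17 in day 7 tamoxifen cultures, against 1.60 and 1.1 in day 7 mock cultures. By this probe treated and mock cultures overlapped on both days, with differences of 0.04 (95% interval -0.42 to 0.51) and -0.02 (-0.48 to 0.45).

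The other Kdr probe was printed in 10 spots on every array, and all 10 were well above background each time. It was at 5.13 and 5.11 in tamoxifen glomeruli, against 5.55 and 5.28 in control glomeruli. It was at -0.70 and -0.70 in day 4 tamoxifen cultures, against -2.07 and -1.99 in day 4 mock cultures, and at -0.93 and -0.69 in day 7 tamoxifen cultures, against -1.87 and -2.67 in day 7 mock cultures. On this probe every tamoxifen culture array was above every mock array, and the glomerular arrays leaned the other way. The SD over the 10 spots of an array was 0.030 to 0.19. That is the spread of repeat spots and not of cultures, and the day 7 mock arrays lay farther apart than that.

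With the 10-spot probe in place of the other, a measurement added after the data were seen, Kdr differed by 1.33 at day 4 (SE 0.24, limma adjusted p = 0.076) and rose by 1.46 at day 7 (SE 0.24, adjusted p = 0.037), or 2.75-fold. The day 4 value passed with normexp and quantile normalization (0.95, adjusted p = 0.035) and in 2 of 12 fits with 1 array removed. The mean of both days was 1.39 (SE 0.17, adjusted p = 0.0056), or 2.63-fold. With 1 array removed at a time, 11 of 12 fits had no day 7 call (adjusted p up to 0.17), and it was also lost with the day 7 arrays fitted alone (adjusted p = 0.36) and with every probe fitted by itself (adjusted p = 0.053, 0.519% of probes called). The mean of both days passed in 12 of 12 such fits (1.19 to 1.59). In glomeruli the 10-spot probe differed by -0.30 (SE 0.24, adjusted p = 0.57). The glomerular response differed from the mean culture response by -1.69 (SE 0.29, adjusted p = 0.045), a call kept in 2 of 12 fits with 1 array removed and lost with every probe fitted by itself (adjusted p = 0.053). By the probe with 1 spot that difference was -0.36 (adjusted p = 0.53).

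**Figure D2:**
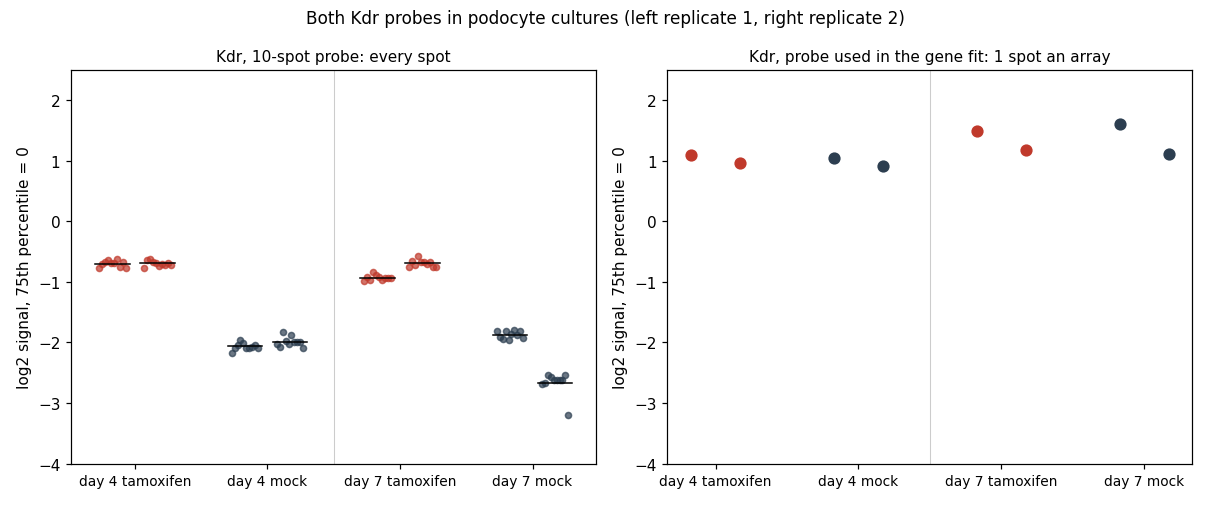
Log2 signal of Kdr in the cultures, with the array's 75th percentile at 0, by its 10-spot probe (left, every spot, black lines the array means) and by the probe with 1 spot (right, 1 point an array). Tamoxifen is red and mock dark, replicate 1 lies left of replicate 2. On the left the tamoxifen arrays sit between -0.93 and -0.69 and the mock arrays between -2.67 and -1.87, and on the right the groups overlap.

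Both Kdr probes were lower in mock cultures than in control glomeruli. The probe with 1 spot fell by 1.77 (SE 0.17, limma adjusted p = 6.5e-05) and the 10-spot probe fell by 7.57 (SE 0.21, adjusted p = 8.8e-08). They thus shared a direction here and differed in size, a 3.41-fold against a 189-fold lower signal. In glomeruli with tamoxifen both leaned lower without passing.

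Angpt1, on chromosome 15, encodes the activating ligand of Tek. It was at -1.73 and -2.11 in tamoxifen glomeruli, against -3.04 and -2.40 in control glomeruli. It was at -0.48 and -0.05 in day 4 tamoxifen cultures, against 0.38 and 1.13 in day 4 mock cultures. It was at -0.82 and -0.22 in day 7 tamoxifen cultures, against 0.19 and 1.11 in day 7 mock cultures. Both tamoxifen groups lay below every mock array in culture, while in glomeruli the treated arrays lay above the controls. For all genes, tamoxifen arrays lay below mock arrays within both days for 11.3%.

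The Angpt1 difference with tamoxifen was -1.02 at day 4 (SE 0.41, limma adjusted p = 0.41) and -1.17 at day 7 (SE 0.41, adjusted p = 0.29), and 0.80 in glomeruli (SE 0.41, adjusted p = 0.35), none of which passed. The mean of both culture days was -1.09 (SE 0.29, adjusted p = 0.075), or 2.13-fold lower. It passed with normexp background correction and quantile normalization (-0.97, adjusted p = 0.047), with the replicate number as a block (adjusted p = 0.025) and with that block for cultures alone (adjusted p = 0.010), though no source says that a number marks a shared culture. Without the first day 7 mock array it was -1.32 (adjusted p = 0.043), and leaving out each other array in turn kept it uncalled. The glomerular response minus the mean culture response was 1.89 for Angpt1 (95% interval 0.73 to 3.05) and did not pass (unadjusted p = 0.0056, adjusted p = 0.11), except with the block for cultures alone (adjusted p = 0.029). In that test of the difference 0 of the 10 genes were called, against 1.08% of all genes, and Angpt1 was the 1 gene of the 10 at an unadjusted limma p under 0.05. Vegfa gave -1.0 there (SE 0.46, adjusted p = 0.33).

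Angpt2 encodes the ligand that can oppose Angpt1 and in vivo is made mostly by endothelial cells. It was at 1.81 and 1.74 in tamoxifen glomeruli, against 2.40 and 1.34 in control glomeruli, and lay between -2.78 and -2.19 in tamoxifen cultures and between -2.95 and -2.01 in mock cultures. Every glomerular array was above every culture array. At day 4 both tamoxifen arrays were below both mock arrays, with a difference of -0.61 (SE 0.38), and at day 7 they overlapped, with a difference of 0.08 (SE 0.38). In mock cultures against control glomeruli Angpt1 rose by 3.42 (SE 0.35, limma adjusted p = 8.5e-05), a 10.7-fold higher signal, and Angpt2 fell by 4.19 (SE 0.33, adjusted p = 2.1e-05), an 18.3-fold lower signal.

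**Figure D3:**
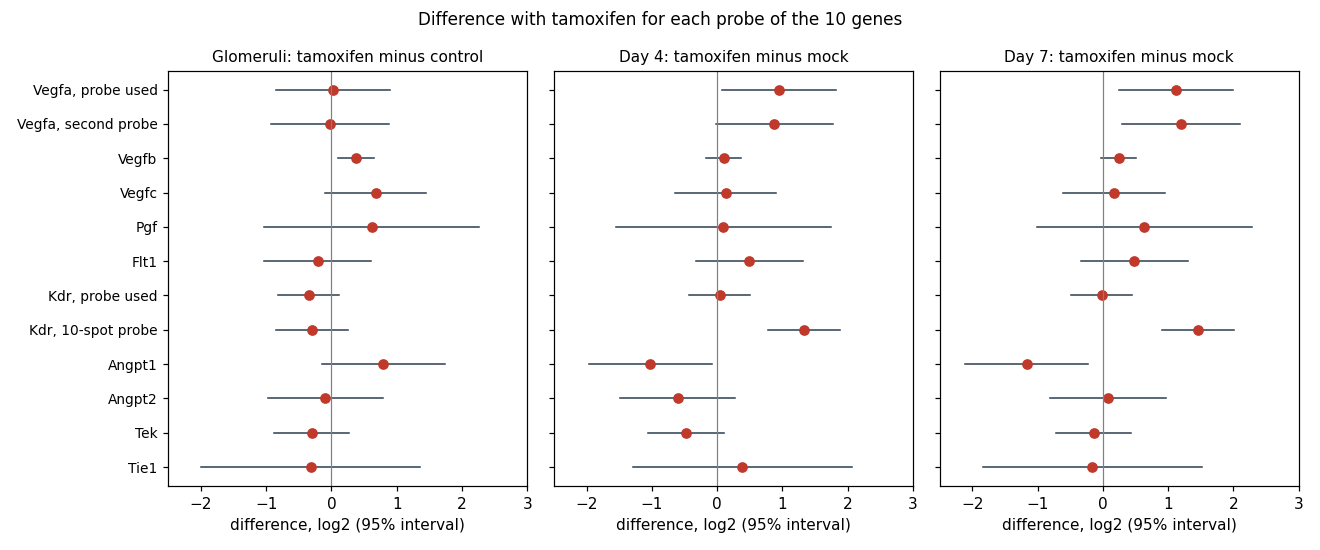
Difference with tamoxifen on the log2 scale (points) and its 95% interval (lines) for each of the 12 probes, in glomeruli, at day 4 and at day 7, each probe fitted by itself. Vegfa lies right of 0 in both culture panels and Angpt1 left of it. The day 4 interval of the second Vegfa probe, -0.024 to 1.78, holds 0. In cultures the 10-spot Kdr probe stands at 1.33 and 1.46 while the other Kdr probe stands at 0.04 and -0.02. Of the other intervals that of Vegfb in glomeruli leaves out 0. Tek and Tie1 were not well above background in either culture panel.

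Tek encodes the angiopoietin receptor, and Tie1 its partner receptor, for which angiopoietins are not known to be strong direct ligands. Both genes are on chromosome 4. Tek was at 1.72 and 1.20 in tamoxifen glomeruli, against 1.84 and 1.68 in control glomeruli, with a difference of -0.30 (95% interval -0.88 to 0.27). Tie1 was at 2.07 and 1.92 in tamoxifen glomeruli, against 2.41 and 2.21 in control glomeruli, with a difference of -0.32 (-2.0 to 1.37). The Tek arrays overlapped and the Tie1 arrays did not, and neither gene passed. The fit shares 1 spread over the 6 groups. For Tie1 the SD was 0.11 in tamoxifen and 0.15 in control glomeruli, against 1.67 in day 7 mock cultures. Tie1 was not well above background in those cultures, so its wide glomerular interval rests largely on dim culture arrays. With the glomerular arrays fitted alone Tie1 did not pass either (limma adjusted p = 0.49).

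In the cultures neither Tek nor Tie1 was well above background on any of the 8 arrays, so no difference between tamoxifen and mock could be measured. Against a floor, set on each array at its dimmest probe that was well above background, or at the probe's own signal where higher, Tek was at least 177-fold lower in mock cultures than in control glomeruli and Tie1 at least 249-fold lower. The limma fit ran on the measured signals and not on the floor (adjusted p = 4.9e-08 for Tek and 1.0e-05 for Tie1), and since both genes had to differ once they passed the filter, these p-values support nothing further. With no filter on dim probes the adjusted p was 9.2e-08 for Tek and 1.6e-05 for Tie1. The bounds hold for the processed signal alone: with normexp background correction, which adds an offset of 50 units to every signal, and quantile normalization, the differences were -4.82 for Tek and -5.33 for Tie1, smaller than the bounds. Their measured means were -7.25 and -6.83 in mock cultures, against 1.76 and 2.31 in control glomeruli.

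**Figure D4:**
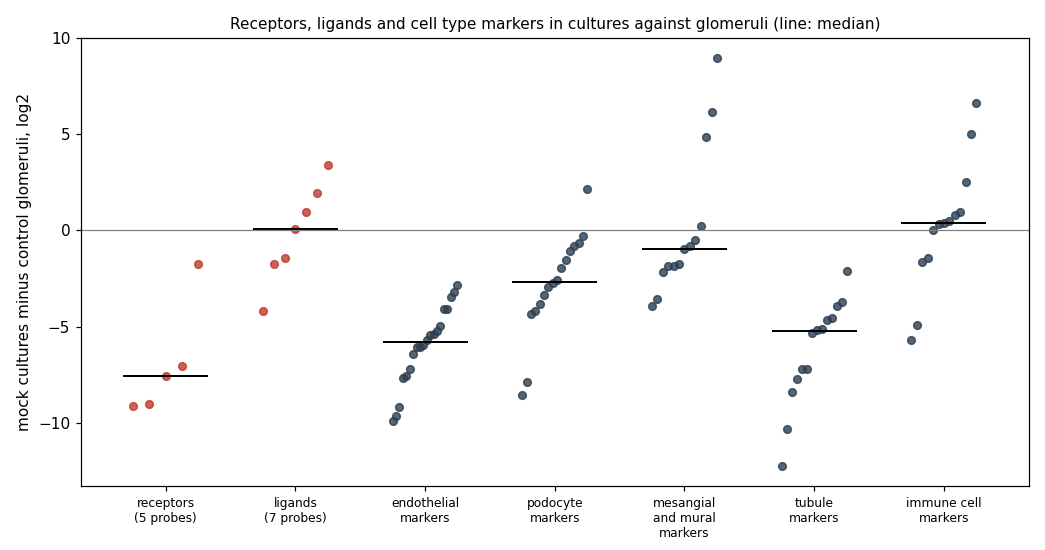
Mock cultures minus control glomeruli on the log2 scale for the probes of the 4 receptors and the 6 ligands (red) and for the genes of 5 marker lists (dark), with each list's median as a line. Tek, Tie1 and markers that were dim in cultures, Erg and Clec14a among them, are drawn at their measured, not well above background, values. All receptor probes and all 20 endothelial markers lie below 0, and ligands lie on both sides, with Angpt1 at 3.42 and Angpt2 at -4.19.

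The endothelial markers moved with the receptors in this comparison. All 20 were called lower in mock cultures, against 26% of all genes. Among them Erg and Clec14a, well above background on no culture array, were kept only through the glomeruli and had to differ here. The median of the 20 was -5.82, against 0.17 for all genes. Cldn5, a tight junction protein of endothelium, fell by 9.93, and Pecam1, an endothelial adhesion molecule, fell by 5.21. The signals of the 20 genes, summed after undoing the log, were 16.4 to 24.7 times the array's 75th percentile in mock cultures, against 495 to 620 in control glomeruli. Fewer endothelial cells and less of each RNA per cell cannot be told apart in such bulk RNA. Podocyte markers also differed, with 14 of 16 called lower and 1, Kirrel, called higher in mock cultures, against 26% and 37.6% of all genes.

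In glomeruli with tamoxifen 19 of the 20 endothelial markers leaned lower and 0 were called, with a median of -0.34, against -0.05 for all genes, beside leanings of -0.21 to -0.34 for Flt1, Kdr, Tek and Tie1. Their summed signal was 404 to 448 in tamoxifen glomeruli, against 495 to 620 in control glomeruli. Other cell type markers moved on the same arrays, and those named here were picked after their values were seen. The summed signal of 16 podocyte markers was 315 and 419, against 480 and 609, that of 14 tubule markers was 164 and 110, against 68.6 and 75.7, and that of 6 red cell markers was 0.88 and 7.40, against 84.7 and 38.1. Synpo and Thsd7a were called lower among the podocyte markers, and Slc22a6 and Slc12a1 higher among the tubule markers. Hbb-bt, Hba-a2 and Alas2 were called lower among the red cell markers. Among all genes 2.62% were called in this comparison. All 13 mesangial and mural markers leaned higher (median 0.44) and 1 was called, Acta2, while their summed signal overlapped, at 93.8 and 95.7, against 102 and 55.9. Of 13 immune cell markers 12 leaned lower (median -0.87) and 1 was called, Ms4a1, with sums of 6.10 and 8.36, against 12.9 and 12.2. Their part in the values of the 10 genes was not tested.

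In cultures the endothelial sum was 12.2 to 18.0 on tamoxifen arrays, against 16.4 to 24.7 on mock arrays. The groups overlapped at day 7 and not at day 4, where it was 15.1 and 12.2, against 19.1 and 19.8. At day 4, 12 of the 20 endothelial markers leaned lower, 8 leaned higher and 0 were called, against 0.21% of all genes. The summed signal of 13 mesangial and mural markers was 616 to 684 on tamoxifen arrays, against 470 to 564 on mock arrays. Of the 13 genes 7 leaned higher and 6 lower in the mean culture response, with Myh11 called higher and Rgs5 lower, so the sum does not stand for every gene of the list. The sum of 7 parietal epithelial markers was 42.2 to 43.8 on tamoxifen arrays, against 19.2 to 28.6 on mock arrays, with 5 genes leaning higher and 2 lower, and the 1 called gene, Cldn1, was lower. Of 16 podocyte markers 10 leaned lower and 3 were called lower, Ptpro, Clic5 and Thsd7a. The sums of the 16 genes were 99.6 to 118 on tamoxifen arrays, against 114 to 125 on mock arrays. In the mean culture response 5.1% of all genes were called. Of 13 immune cell markers 11 leaned lower and 0 were called, and their sums overlapped. The part of those cells in the Vegfa, Angpt1 and Kdr values was not tested.

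Other genes of the pathway were taken from 5 lists. Of 12 other ligands, receptors and coreceptors, 0 were called in any tamoxifen comparison, and in glomeruli 10 of 12 leaned lower (median -0.28). Angpt4, another ligand of Tek, was at -1.81 in day 4 tamoxifen cultures, against -2.51 in mock cultures, and at -0.96 in day 7 tamoxifen cultures, against -2.71 in mock cultures, and did not pass. In mock cultures against control glomeruli 5 of the 12 rose and 5 fell, against 37.6% and 26% of all genes. Ptprb, the phosphatase that acts on Tek, fell by 9.38, Flt4 fell by 4.46, and of the coreceptors Nrp1 fell by 1.94 and Nrp2 fell by 1.37, while Angpt4 rose by 2.65 and the integrin Itgb3 by 1.62.

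Of 25 genes of signal transduction below the receptors, 0 were called with tamoxifen in glomeruli, at day 4 or at day 7. In mock cultures 6 of the 25 rose and 11 fell, against 37.6% and 26% of all genes. Nos3, the endothelial nitric oxide synthase, fell by 5.57. Of 15 measured genes that endothelial cells are known to change under VEGF, 1 was called in tamoxifen glomeruli, Trp53i11, which fell by 0.73 (SE 0.14, limma adjusted p = 0.047) and kept the call in 1 of 12 fits with 1 array removed. Among all genes 2.62% were called in tamoxifen glomeruli. In the mean culture response 3 of the 15 were called, all higher, against 2.84% of all genes called higher. That contrast was added after the data were seen, and the list was chosen with earlier results known. The count is therefore no independent test, and VEGF signalling in the cultures was not tested. Rgcc, a cell cycle regulator, rose by 3.00 (SE 0.63, adjusted p = 0.037), Pdgfb, a growth factor for mural cells, by 0.97 (SE 0.17, adjusted p = 0.020) and Trp53i11 by 0.56 (SE 0.10, adjusted p = 0.023). Rgcc averaged 4.64 in day 4 tamoxifen cultures, against 1.69 in day 4 mock cultures, and 4.81 in day 7 tamoxifen cultures, against 1.75 in day 7 mock cultures. With 1 array removed at a time, Rgcc was called in 3 of 12 fits, Pdgfb in 5 and Trp53i11 in 6.

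Of 17 genes of oxygen sensing, a known route to Vegfa transcription, 1 was called in the mean culture response, against 5.1% of all genes. Hif1a, the hypoxia-inducible factor, rose by 0.59 (SE 0.13, limma adjusted p = 0.038) and was called in 3 of 12 fits with 1 array removed. Its part in the Vegfa values was not tested. Of 16 extracellular regulators of VEGF, 4 were called in the mean culture response, against 5.1% of all genes. This list, too, was chosen with earlier results known. Serpinf1, an antiangiogenic secreted protein, rose by 1.71 (SE 0.38, adjusted p = 0.044). Col18a1, the source of endostatin, fell by 1.14 (adjusted p = 0.021), the basement membrane collagen Col4a3 by 0.92 (adjusted p = 0.015) and Timp3, an inhibitor of Vegfa binding to Kdr, by 0.60 (adjusted p = 0.045). With 1 array removed at a time, Serpinf1 was called in 4 of 12 fits, Col18a1 in 7, Col4a3 in 10 and Timp3 in 3. In tamoxifen glomeruli 1 of the 16 was called, against 2.62% of all genes, the semaphorin Sema3c, which rose by 1.60 (SE 0.31, adjusted p = 0.046) and kept the call in 2 of 12 fits with 1 array removed.

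In mock cultures at day 7 against day 4, 0 of the 10 genes were called, against 0.0328% of all genes, and 0 were at an unadjusted limma p under 0.05. The differences of the 10 genes ran from -0.36 for Angpt2 to 0.41 for Tie1, which was not well above background on either day. The tamoxifen response at day 7 minus that at day 4 was called for 0 of the 10 genes and 0% of all genes, with 0 of the 10 at an unadjusted p under 0.05 in the limma fit.

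The genes nearest to each of the 10 in pattern were found by the mean absolute difference over the 12 arrays after each gene was centred on its own mean. Tek lay nearest to Ripply3 (0.22) and Ptprb (0.28), and Tie1 to Ramp2 (0.31), an endothelial marker, and Gimap1 (0.35). Tek and Tie1 were not well above background on any culture array, so their patterns there are background, and nearness reflects mainly the drop from glomeruli to cultures. Flt1 lay nearest to Ip6k3 (0.27) and Prkch (0.27), the Kdr probe with 1 spot to Ada (0.11), and the 10-spot Kdr probe to Astn1 (0.32) and Fgf1 (0.33). Vegfa lay nearest to Nsf (0.23) and Scara5 (0.24), Angpt1 to Kctd8 (0.21) and Adarb1 (0.26), and Angpt2 to Kcnd3 (0.13) and Itga4 (0.21). Vegfb had the closest neighbours, Dlst (0.080) and Smim26 (0.083). Vegfc lay nearest to Nyap1 (0.13) and Zfp239 (0.14), and Pgf to Tas2r113 (0.33) and Hoxa11 (0.33).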

How the data were processed

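Per the labels' protocols, Cy3-labelled cRNA was made from 0.5 ug total RNA of each of 12 samples for 1-colour Agilent arrays, 1 array a sample. Per the file headers, Agilent Feature Extraction 11.5.1.1 gave the linear spot intensity values, among them a processed signal with background taken off, a median signal and the local background, and flags on spots. A value table that the authors deposited gives log2 values of these arrays, with scale and centring not stated. Set against the scanner files, each column followed the log2 processed signal minus the array's 75th percentile (r = 1) with a constant of 0.094 to 0.12, and its median was -4.14 to -3.81.

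Here the log2 processed signal minus each array's 75th percentile was computed, control spots and outlier spots (83 to 134 an array) were left out, and repeated spots were averaged per probe. That percentile was 507 to 760 units and the median local background 24.5 to 34 units. Of 39429 probes 28115 had a RefSeq accession, 26581 were matched without versions to 1 symbol of a RefSeq table of assembly GRCm38.p6, and 12848 had none. Probes well above background on at least 2 arrays were kept, 26414 in all and 19994 with a symbol. For the 3986 genes with more than 1 kept probe, the probe brightest on average stood for the gene, which gave 15226 genes. They were tested in 1 fit of the 6 group means by lmFit and eBayes of limma 3.58.1 (R 4.3.3, 6 residual and 1.87 prior degrees of freedom), with Benjamini-Hochberg adjustment over all genes and limma's SE. The fit was tested on simulated data. Replicate arrays correlated at 0.983 to 0.990 across genes. Precision is limited by having 2 arrays a group.

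The comparisons were tamoxifen against control in glomeruli, tamoxifen against mock at day 4 and at day 7, mock cultures of both days against control glomeruli, mock day 7 against mock day 4, and the differences between responses. The mean of both culture responses and Kdr by its 10-spot probe were added after the data were seen. The 10 genes, the gene lists and the rule for named genes were chosen with earlier results of these data known. The rule took the 10 genes, the 2 genes nearest to each in pattern, up to 4 called genes of a list by size (up to 2 as values where none was called), Foxc1 and Foxc2. Alternatives were normexp with quantile normalization, median scaling, quantile normalization, no filter or at least 4 arrays, the mean of a gene's probes, every probe fitted by itself, a replicate block, trend and robust moderation, the authors' table, the compared arrays alone, and each array left out. The array slide as a block could not be fitted where each slide holds its own groups. Listed genes Egr3, Lum and Dpt had no measured probe. The listed names Ctgf and Dscr1 are older symbols of Ccn2 and Rcan1, which are listed and measured too.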

Additional observations from a re-analysis of the deposited data

Results flagged for a closer look

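In the limma fit the glomerular tamoxifen response differed from the mean culture response for Kdr by its 10-spot probe, Foxc2 and Trp53i11. Among the cell type markers, that test also called 1 of 13 mesangial and mural markers and 1 of 14 tubule markers higher. It called 1 of 6 red cell markers lower, and 1.08% of all genes were called. Kdr by its 10-spot probe gave -1.69 (SE 0.29, adjusted p = 0.045), with a difference of -0.30 in glomeruli and 1.39 in cultures. That call was kept in 2 of 12 fits with 1 array removed and lost with every probe fitted by itself (adjusted p = 0.053), and the Kdr probe with 1 spot gave -0.36 (adjusted p = 0.53). The fit gave 5.60 for Foxc2, which is no measured size, since its probe was not well above background on any tamoxifen culture array. Against the floor Foxc2 was at least 145-fold lower with tamoxifen over both culture days, beside 7.08-fold lower in glomeruli. Trp53i11, a gene that endothelial cells are known to raise under VEGF, gave -1.29 (SE 0.18, adjusted p = 0.029), with -0.73 in glomeruli and 0.56 in cultures.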

How the results depend on the processing

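The count of 8 of the 10 genes called in mock cultures against control glomeruli, and the counts of 0 in each tamoxifen comparison, over time and between day 7 and day 4, were the same under every alternative but 1: with the 10-spot Kdr probe standing for the gene, the day 7 count was 1 (Kdr, adjusted p = 0.037). In the mean culture response the count was 1 in place of 0 with normexp and quantile normalization (Angpt1, -0.97), with probes averaged per gene (Kdr, 0.70), with every probe fitted by itself (Kdr, 1.39), with the replicate block (Angpt1, adjusted p = 0.025) and with a block for same-numbered cultures alone (Angpt1, adjusted p = 0.010), and 0 to 1 with each array left out. Under that last block the count of genes whose glomerular response differed was also 1 (Angpt1, 1.89, adjusted p = 0.029). With the 10-spot Kdr probe standing for the gene, Kdr was called in the mean culture response (limma adjusted p = 0.0056). By that probe its glomerular response also differed from the culture response (adjusted p = 0.045). No source says that a number marks a shared animal or culture. Same-numbered culture arrays deviated together (correlation 0.395 to 0.551 over 6 pairs of groups, 0.21 between glomerular groups), a hint from the data and not from the design. The block raised the count of all genes called at day 4 to 110 and the culture block to 269, against 32, at day 7 to 245 and 503, against 148, and in the mean culture response the culture block to 1479, against 777. With normexp the count was 940 in glomeruli, against 399, and 109 at day 4. With the compared arrays alone it was 0 in glomeruli, 0 at day 4 and 1 at day 7. Each array left out gave 79 to 494 in glomeruli, 7 to 79 at day 4, 9 to 237 at day 7 and 227 to 926 in the mean culture response. With median scaling 319 rose and 72 fell in glomeruli, against 263 and 136, and 6994 rose and 3080 fell in mock cultures, against 5727 and 3958. Signs turned for values that did not pass in the reported fit: Vegfa in glomeruli by its second probe (-0.019), with normexp Kdr (-0.0029) and Tie1 (-0.00090) at day 4 and Kdr in the mean culture response (-0.034), quantile normalization alone for the last (-0.010), and Kdr at day 7 with median scaling (0.038), the mean of its probes (0.72) and its 10-spot probe (1.46). With each array left out, values ran in glomeruli from -0.24 to 0.30 for Vegfa, -0.28 to 1.51 for Pgf and -0.62 to 0.44 for Angpt2. At day 4 they ran from -0.022 to 0.28 for Vegfc, -0.51 to 0.70 for Pgf, -0.024 to 0.11 for Kdr and -0.20 to 0.97 for Tie1. At day 7 they ran from -0.0082 to 0.35 for Vegfc, -0.26 to 0.23 for Kdr, -0.36 to 0.53 for Angpt2, -0.35 to 0.074 for Tek and -1.34 to 1.02 for Tie1, and in the mean culture response from -0.11 to 0.14 for Kdr. The causes were not tested. Where an array is left out, the lone array of its group is assumed to vary like the others. Tek and Tie1 in cultures are limited by background.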
